A study of Danio rerio with 18 samples.

Results

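The yolk syncytial layer is the multinucleate outer part of the zebrafish yolk cell. It forms when blastomeres at the embryo margin fuse with the yolk, sends inducing signals to the overlying cells, and later moves yolk lipid into the embryo with much of the machinery that a liver uses. Its regulators include the homeobox gene mxtx2, which is activated by Nanog and acts upstream of Nodal ligands in the layer, and its lipid export uses lipoproteins that carry apolipoprotein B. 8 genes of this layer were followed here, chosen by name with earlier results of these data known. They were the homeobox genes mxtx1 and mxtx2, the hepatic-type transcription factors hnf4a and hnf1ba, and the lipid transfer gene mttp. The others were the secreted-protein gene fetub, the transporter gene slco1d1 and the RNA-binding protein gene rbm47. All 8 were found, each under 1 identifier, among the 32520 genes of the deposited count tables.

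The study measured RNA from whole zebrafish embryos 4 h after fertilisation. Embryos had received RfxCas13d, an enzyme that cuts RNA at sites set by a guide RNA (gRNA), together with 1 of 8 cocktails of 25 gRNAs each (Cocktails 1 to 8, 200 gRNAs in all, labelled at 10 pg per embryo), or RfxCas13d as the control; whether 10 pg is the amount of each gRNA or of a cocktail is not stated. Its stated purpose was to test how well computational models predict RNA depletion in vivo from these gRNAs. Each of the 9 groups had 2 libraries, which gives 16 cocktail libraries and 2 control libraries. Which genes each cocktail targets is not given in the sources used here. Depletion of the targets was therefore not checked, and whether any of the 8 genes was a target cannot be told. The labels do not say whether the 2 libraries of a group came from separate clutches or injections, so every p-value below measures only the spread between these libraries, which may be technical. Libraries held 2544027 to 4864939 gene counts, and 21.6% to 47.3% of reads were unmapped in cocktail libraries, against 10.1% and 10.8% in the control. Cocktail 1 replicate 1 stood apart from all other libraries: the 8 genes summed there to 3.24 CPM (a gene's counts scaled to the library's total after TMM normalisation), against 369 CPM in the next lowest cocktail library and 875 and 881 CPM in the controls. Its log2 CPM correlated with that of its own replicate at a Pearson r of 0.877 across genes, the lowest of the 9 groups (highest 0.962, Cocktail 6). Where leaving it out changed the call of a named gene in the mean of the cocktails, both values are given.

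In the mean of the 8 cocktails, 6 of the 8 genes were lower than in the control: hnf4a, hnf1ba, mttp, fetub, slco1d1 and rbm47. These are the liver-type transcription factors and the genes of lipid export, secretion, transport and RNA binding. The early homeobox regulators were not called: mxtx1 lay below both controls in 16 of 16 cocktail libraries, while mxtx2 lay above both controls in 15 of 16. With Cocktail 1 left out, mxtx1 was called lower (log2 -0.85, edgeR adjusted p = 0.00439) and mxtx2 higher (0.56, 0.0305). mxtx1 was also called lower with no filter on low counts (-1.07, edgeR adjusted p = 5.04e-05). The background for the first count is 13.6% of 14514 tested genes called lower (15.1% were called higher), by edgeR's quasi-likelihood test at a Benjamini-Hochberg adjusted p under 0.05. Over the 8 genes the median log2 fold change, mean of the cocktails minus control, was -3.40, or -3.33 with groups at 0 counts set at their bound, beside 0.03 over all genes tested. All 8 passed the filter on low counts. The 8 genes, like the lists below, were chosen with earlier results of these data known. Setting them beside the shares of all genes is therefore no independent test. Because whole embryos were measured, fewer cells or nuclei of the layer and less RNA per cell cannot be told apart in any value below.

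**Figure D1:**
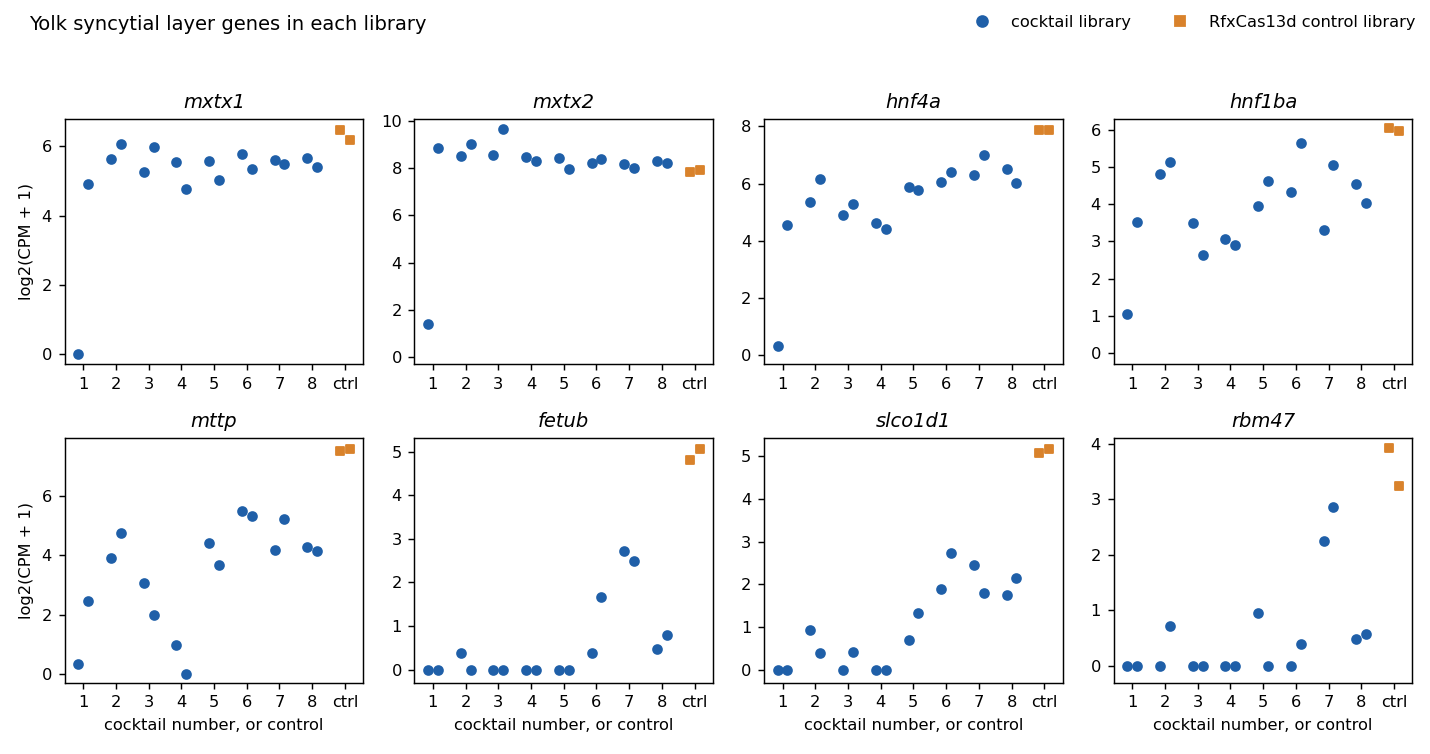
Expression of the 8 genes in each library, as log2(CPM + 1), for Cocktails 1 to 8 (blue circles, 2 libraries each) and the RfxCas13d control (orange squares, 2 libraries). The controls are above all 16 cocktail libraries for every gene except mxtx2, for which 15 of 16 cocktail libraries are above both controls; Cocktail 1 replicate 1 is the low point in the panels of mxtx1, mxtx2 and hnf4a.

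mxtx2 (ENSDARG00000015906), the homeobox regulator at the head of the layer's programme, had 1.62 CPM at the lowest, 325 CPM at the median and 822 CPM at the highest over the 16 cocktail libraries, against 231 and 243 CPM in the control libraries. The lowest value is that of Cocktail 1 replicate 1, with 6 counts; the next lowest is 251 CPM, in Cocktail 5 replicate 2, so the other 15 do not overlap the control. 17.5% of all tested genes had at least 15 of 16 cocktail libraries above both controls. Highest was Cocktail 3, with 375 and 822 CPM in its 2 libraries, followed by Cocktail 2 with 366 and 515 CPM. The fitted difference was 0.50 ± 1.00 (log2, SE) and was not called (edgeR quasi-likelihood test, adjusted p = 0.754). Without Cocktail 1 replicate 1 it was 0.61 and called higher (adjusted p = 0.0163), and without Cocktail 1 replicate 2, which leaves the low library to stand for its group, it was -0.39 and not called (adjusted p = 0.126).

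mxtx1 (ENSDARG00000069382), a related homeobox gene of the layer, had 0 CPM at the lowest, 44.9 CPM at the median and 66.9 CPM at the highest in cocktail libraries, against 88.2 and 72.6 CPM in the control. On the CPM scale the groups do not overlap (12.3% of all tested genes had 16 of 16 cocktail libraries below both controls). On the length-scaled TPM (transcript level scaled by gene length and library) they do, since the highest cocktail library reached 58.0 TPM and the lower control 57.5 TPM. The difference of -1.04 ± 0.64 (log2, SE) was not called (edgeR quasi-likelihood test, adjusted p = 0.264). It was called without Cocktail 1 replicate 1 (-0.92, adjusted p = 0.00195) and without replicate 2 of that cocktail (-2.11, adjusted p = 2.21e-06). Pooled over all cocktail libraries, the counts of mxtx1 were 1.99-fold lower than in the control (95% counting interval 1.81 to 2.17), a smaller difference than for any of the other 6 genes that lay below the control.

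hnf4a (ENSDARG00000021494) encodes a nuclear receptor that drives lipid and liver genes. It had 40.1 and 70.5 CPM in the libraries of Cocktail 2, 28.8 and 38.4 CPM in those of Cocktail 3, 23.5 and 20.1 CPM in Cocktail 4, 57.3 and 53.4 CPM in Cocktail 5, 65.5 and 84.0 CPM in Cocktail 6, 77.5 and 126 CPM in Cocktail 7 and 89.4 and 64.3 CPM in Cocktail 8, against 235 and 235 CPM in the control. Cocktail 1 had 0.270 and 22.4 CPM. Cocktail 7 was thus the nearest to the control and still below it in both libraries, although in TPM its replicate 2 reached 145, between the control values of 143 and 159. In the order of cocktail means (7, 8, 6, 5, 2, 3, 4, 1), neighbours had separate ranges between Cocktails 6 and 5, between 2 and 3 and between 3 and 4, and overlapped otherwise. hnf4a fell by 2.41 ± 0.48 on the log2 scale (edgeR quasi-likelihood test, adjusted p = 0.00398), a pooled 4.47-fold difference. The call was lost at nearly the same size without control replicate 1 (adjusted p = 0.0517) or control replicate 2 (adjusted p = 0.0504), and in limma on log2(TPM + 1) (-1.77, adjusted p = 0.0518).

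hnf1ba (ENSDARG00000006615), a homeobox transcription factor of liver, gut and kidney, ran from 1.08 CPM in Cocktail 1 replicate 1 through a median of 14.96 CPM to 49.2 CPM in Cocktail 6 replicate 2, against 65.4 and 61.8 CPM in the control. Every cocktail library was below both controls. Replicates of a cocktail differed for this gene: 8.94 and 32.6 CPM in Cocktail 7, and 19.1 and 49.2 CPM in Cocktail 6. hnf1ba fell by 2.09 ± 0.41 on the log2 scale (edgeR quasi-likelihood test, adjusted p = 0.00117).

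mttp (ENSDARG00000008637) encodes the large subunit of microsomal triglyceride transfer protein, which loads lipid onto apolipoprotein B. In Cocktail 6 it had 44.0 and 38.8 CPM, in Cocktail 7 17.1 and 36.0 CPM, in Cocktail 2 14.1 and 26.1 CPM, in Cocktail 8 18.6 and 16.7 CPM and in Cocktail 5 20.5 and 11.9 CPM, against 182 and 192 CPM in the control. It was lower still in Cocktail 3 (7.46 and 2.95 CPM), Cocktail 1 (0.270 and 4.48 CPM) and Cocktail 4 (0.965 and 0 CPM, from 3 counts and 0 counts). The 3 lowest cocktails did not overlap the other 5. mttp fell by 4.39 ± 0.31 on the log2 scale in the mean of the cocktails (edgeR quasi-likelihood test, adjusted p = 3.12e-08). It also differed among the 8 cocktails (edgeR adjusted p = 0.00111), as did 2.46% of all tested genes. That test contrasts only the cocktails, but the control libraries enter the fit and its estimate of the spread. The pooled ratio to the control ran from 4.49-fold lower in Cocktail 6 (95% counting interval 3.94 to 5.13) to 394-fold lower in Cocktail 4 (134 to 1911), the last from 3 counts.

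The other 3 genes were near the limit of detection in the cocktails, so they are given as counts. fetub (ENSDARG00000053973), a secreted protein of the fetuin and cystatin family that the liver releases, had 15 and 15 counts in Cocktail 7, 1 and 7 counts in Cocktail 6, 1 and 3 counts in Cocktail 8, 1 and 0 counts in Cocktail 2 and 0 counts in the 8 libraries of Cocktails 1, 3, 4 and 5, against 117 and 108 counts in the control. The deposited TPM table lists 0.14 TPM of fetub for Cocktail 5 replicate 2. Conversely, mttp in Cocktail 1 replicate 1 (1 count) and slco1d1 in Cocktail 5 replicate 1 (2 counts) had 0 TPM. The count and TPM tables were thus not made in the same way. Against the control, fetub was 5.78-fold lower in Cocktail 7 (95% counting interval 3.94 to 8.77), 23.99-fold lower in Cocktail 6 and 48.5-fold lower in Cocktail 8. In the 4 cocktails at 0 it was at least 62.1-fold lower (Cocktail 4) to at least 69.8-fold lower (Cocktail 5), with 3 counts over both libraries of a group as the floor (0.421 CPM in Cocktail 5 to 0.473 CPM in Cocktail 4). These intervals and floors cover counting error only, and reads are not independent molecules here.

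slco1d1 (ENSDARG00000104108), an organic anion transporter of the Slco family, had 9 and 18 counts in Cocktail 6, 12 and 8 counts in Cocktail 7, 6 and 14 counts in Cocktail 8, 2 and 6 counts in Cocktail 5, 3 and 1 counts in Cocktail 2, 0 and 1 counts in Cocktail 3 and 0 counts in all 4 libraries of Cocktails 1 and 4, against 142 and 117 counts in the control. Cocktails 6, 7 and 8 were 8.18-fold to 11.2-fold lower than the control, and Cocktails 1 and 4 at least 77.0-fold and at least 71.4-fold lower. rbm47 (ENSDARG00000061985), an RNA-binding protein that in mammals is a cofactor of apolipoprotein B mRNA editing, had 10 and 20 counts in Cocktail 7 and at most 3 counts in any other cocktail library, with 0 counts in all 6 libraries of Cocktails 1, 3 and 4. The control had 61 and 28 counts. Cocktail 7 was 2.29-fold lower than the control for rbm47 (95% counting interval 1.497 to 3.58), whereas Cocktail 1 was at least 26.4-fold lower.

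All 3 were called lower in the mean of the cocktails (edgeR quasi-likelihood test, adjusted p = 7.21e-08 for fetub, 2.34e-08 for slco1d1 and 2.02e-05 for rbm47), and pooled over all cocktail libraries they were 35.8-fold, 22.2-fold and 15.6-fold lower. fetub (edgeR adjusted p = 0.0104) and slco1d1 (0.00908) also differed among the cocktails, while rbm47 did not pass (0.0668). Without Cocktail 1 replicate 1 rbm47 passed (0.0365), as did hnf4a (0.000102), mxtx2 (0.0190) and hnf1ba (0.0261). The calls of fetub and slco1d1 among cocktails were lost in limma on log2(TPM + 1), where the adjusted p was 0.137 for fetub and 0.262 for slco1d1, and without Cocktail 7 replicate 1 it was 0.0541 for fetub.

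**Figure D2:**
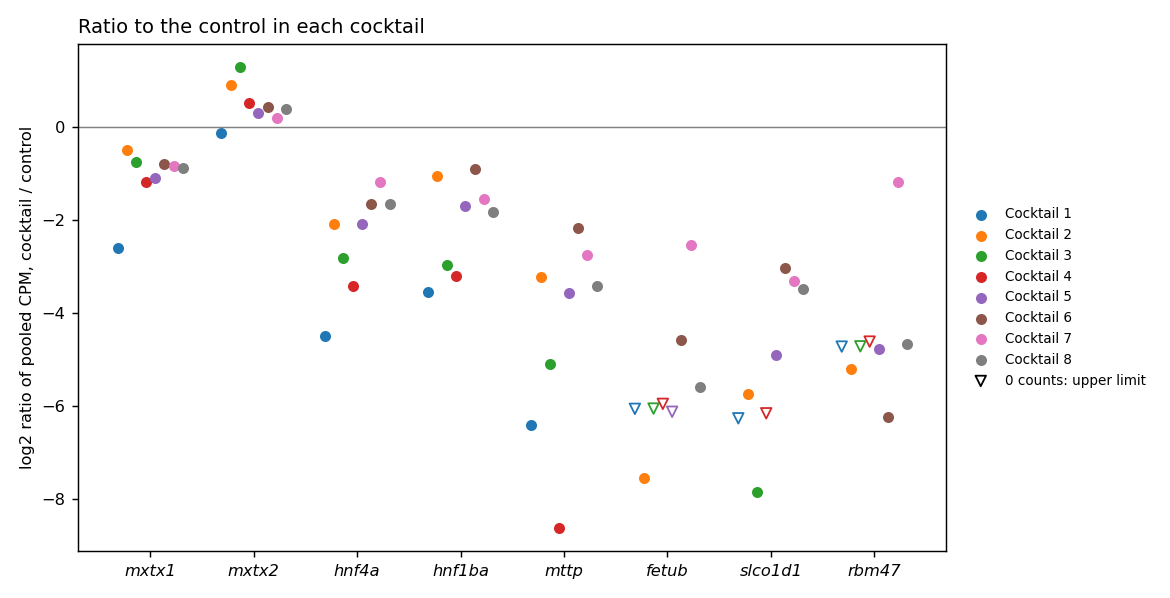
Log2 ratio of pooled CPM, cocktail over RfxCas13d control, for each of the 8 genes in Cocktails 1 to 8 (colours); open triangles are upper limits where both libraries of a cocktail had 0 counts. mxtx2 is the gene with points above 0 (7 of its 8), mttp reaches its lowest value in Cocktail 4, and Cocktail 7 is nearest to the control for hnf4a, fetub and rbm47.

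Taken cocktail by cocktail, with a change of at least 2-fold required and the same 2 control libraries used each time, 6 of the 8 genes were called lower in Cocktail 1 (7.86% of all tested genes were), 6 in Cocktail 3 (7.70%) and 6 in Cocktail 4 (6.69%). In Cocktail 2 it was 4 genes (3.00%), in Cocktail 5 it was 4 (3.47%), in Cocktail 6 it was 4 (1.14%), in Cocktail 8 it was 4 (2.25%) and in Cocktail 7 it was 2 (1.67%), namely mttp and slco1d1. mttp and slco1d1 were called in all 8 cocktails, fetub and rbm47 in 7, and hnf4a and hnf1ba in 3, Cocktails 1, 3 and 4. Fold changes of hnf4a in the other 5 cocktails lay between -2.09 (Cocktail 2) and -1.21 (Cocktail 7) on the log2 scale without passing. mxtx2 had its largest difference in Cocktail 3 (1.33, edgeR adjusted p = 0.503, and 0.000199 without Cocktail 1 replicate 1). The shares of all tested genes called higher were 12.6% in Cocktail 1, 6.17% in Cocktail 2, 11.5% in Cocktail 3, 11.4% in Cocktail 4, 9.38% in Cocktail 5, 4.61% in Cocktail 6, 4.52% in Cocktail 7 and 6.32% in Cocktail 8. Without Cocktail 1 replicate 1, in a fit where all groups share an estimate of the spread, hnf4a passed in those 5 as well, with edgeR adjusted p from 7.32e-06 (Cocktail 5) to 0.00376 (Cocktail 7). With both libraries of Cocktail 1 left out, hnf1ba was called lower in Cocktails 5, 7 and 8 (edgeR adjusted p = 0.00886, 0.0254 and 0.0121). With no filter on low counts it was called in the same cocktails (edgeR adjusted p = 0.000551, 0.00356 and 0.000767). Neither setting added a call of hnf1ba in Cocktails 2 or 6. Many of the calls made with all libraries were lost in fits that left out single libraries. Of 18 fits that each left out 1 library, hnf4a lost its call in Cocktail 3 in 12 (edgeR adjusted p up to 0.133) and in Cocktail 4 in 4 (up to 0.125). hnf1ba lost it in Cocktail 3 in 1 (0.0905) and in Cocktail 4 in 2 (up to 0.0669). rbm47 lost it in Cocktail 8 in 6 (up to 0.229), in Cocktails 2 and 6 in 4 each and in Cocktail 5 in 3, and slco1d1 lost it in Cocktail 7 in 3 and in Cocktail 8 in 1. Some of these losses came without a library that belonged to neither group compared. For hnf4a in Cocktail 3, leaving out a library of Cocktails 4, 5, 6 or 8 kept the difference at -2.81. For rbm47 in Cocktail 8 it was -4.54 and -4.53 without Cocktail 7 replicates 1 and 2. The size of the change did not depend on those libraries. With only the libraries of the 2 groups compared, the calls in Cocktail 1 were lost for hnf4a (-4.45, edgeR adjusted p = 0.267) and hnf1ba (-3.54, 0.0699). Other calls were gained there. hnf4a was lower in Cocktails 2, 5, 6, 7 and 8 (edgeR adjusted p from 6.61e-09 to 0.000705) and hnf1ba in Cocktails 2, 5, 7 and 8 (0.000112 to 0.0123). mxtx1 was lower in Cocktails 4 (0.00104) and 5 (0.00221), fetub in Cocktail 7 (0.000614), and mxtx2 was higher in Cocktail 3 (0.00923). In Cocktail 6, mttp had an edgeR adjusted p of 0.0150 with all libraries, 0.139 without Cocktail 6 replicate 1, 0.176 without Cocktail 6 replicate 2, 0.0927 without control replicate 1 and 0.103 without control replicate 2. All 4 calls there were lost without Cocktail 6 replicate 1 or either control replicate, and 1, fetub, was kept without Cocktail 6 replicate 2. In Cocktails 5, 7 and 8 the number of the 8 genes called lower also moved with the library left out. The number of all tested genes called lower moved there too, so these shifts are not read as a result about the 8 genes.

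Levels of different genes can be set side by side only on the length-scaled TPM, although TPM did not follow the counts in every library, as given above. There mxtx2 was the highest of the 8 in both conditions, with a mean of 449 TPM over cocktail libraries and 277 TPM over control libraries. hnf4a came next (58.1 TPM in cocktails, 151 TPM in the control). mttp had 11.1 TPM in cocktails and 108 TPM in the control, and mxtx1 had 36.4 TPM in cocktails and 64.7 TPM in the control, so that mttp was below mxtx1 in the mean of the cocktails and above it in the control. The remaining 4 followed in the same order of means in both conditions. hnf1ba had 7.35 TPM in cocktails and 23.5 TPM in the control, slco1d1 had 0.837 TPM in cocktails and 17.0 TPM in the control, fetub had 0.496 TPM in cocktails and 14.5 TPM in the control, and rbm47 had 0.296 TPM in cocktails and 2.26 TPM in the control. In the control, the libraries of slco1d1 (16.8 and 17.3 TPM) and fetub (12.8 and 16.2 TPM) lay close together, so the order of that pair rests on a small gap. In cocktail libraries slco1d1 (0 to 3.06 TPM), fetub (0 to 2.99 TPM) and rbm47 (0 to 1.44 TPM) overlapped, so their order there is not firm. In Cocktail 7 the mean of fetub (2.70 TPM) was above that of slco1d1 (1.62 TPM). The order of the higher genes also varied by cocktail. mxtx1 had a higher mean than hnf4a in Cocktail 3 (41.0 against 35.5 TPM) and Cocktail 4 (31.6 against 25.8 TPM). mttp had a lower mean than hnf1ba in Cocktails 1, 2 and 4 (0.29 against 2.96 TPM in Cocktail 4).

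**Figure D3:**
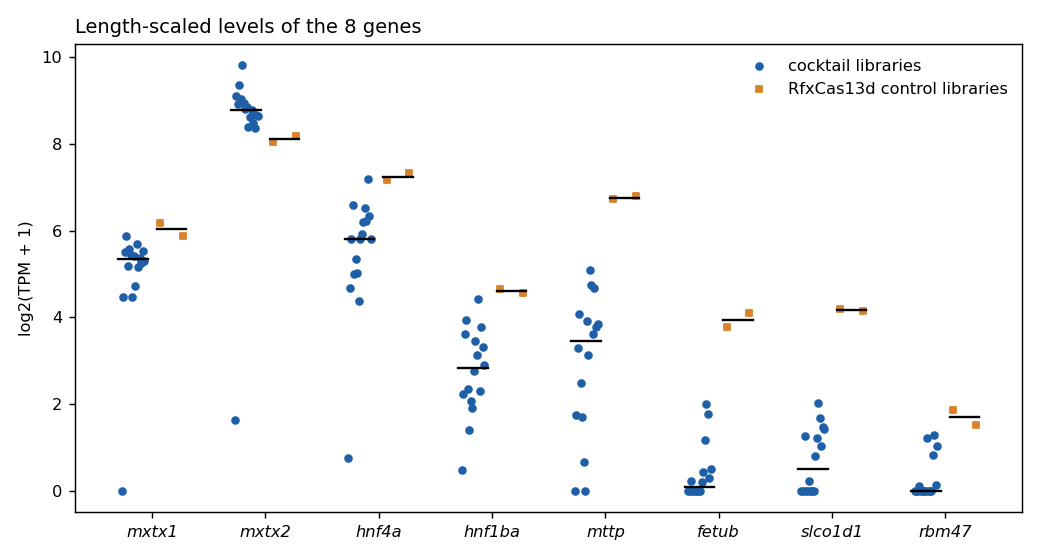
TPM of the 8 genes, as log2(TPM + 1), in the 16 cocktail libraries (blue circles) and the 2 RfxCas13d control libraries (orange squares); black bars are medians. mxtx2 is the highest gene in both and higher in cocktails at the median; mttp has means of 11.1 TPM in cocktails and 108 TPM in the control.

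Correlations were computed across the 16 cocktail libraries, with the control left out, among 6 of the 8 genes. These 6 had a mean of at least 5 CPM over all 18 libraries, controls included. fetub and rbm47 fell below that mean and had 0 counts in 9 of 16 cocktail libraries each. These correlations of log2 CPM describe libraries that share their replicate structure, depth and cocktails, and they are given without a test. mttp followed hnf4a (Pearson r = 0.77, n = 16, and 0.86 without Cocktail 1 replicate 1, n = 15) and hnf1ba (0.83 and 0.78). The r of slco1d1 with hnf4a was 0.63 and 0.83, but it rests on few counts. slco1d1 had a cocktail mean of 1.55 CPM, 0 counts in 5 of 16 cocktail libraries and at most 18 counts. It met the mean of 5 CPM only through the control libraries (32.7 and 35.2 CPM). mxtx1 and mxtx2 seemed closely tied (0.97), but without Cocktail 1 replicate 1 the r was 0.41. For mxtx2 against hnf4a the r changed sign, with 0.82 over all 16 and -0.36 without that library. Against mttp it was 0.40 over all 16 and -0.29 without it.

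**Figure D4:**
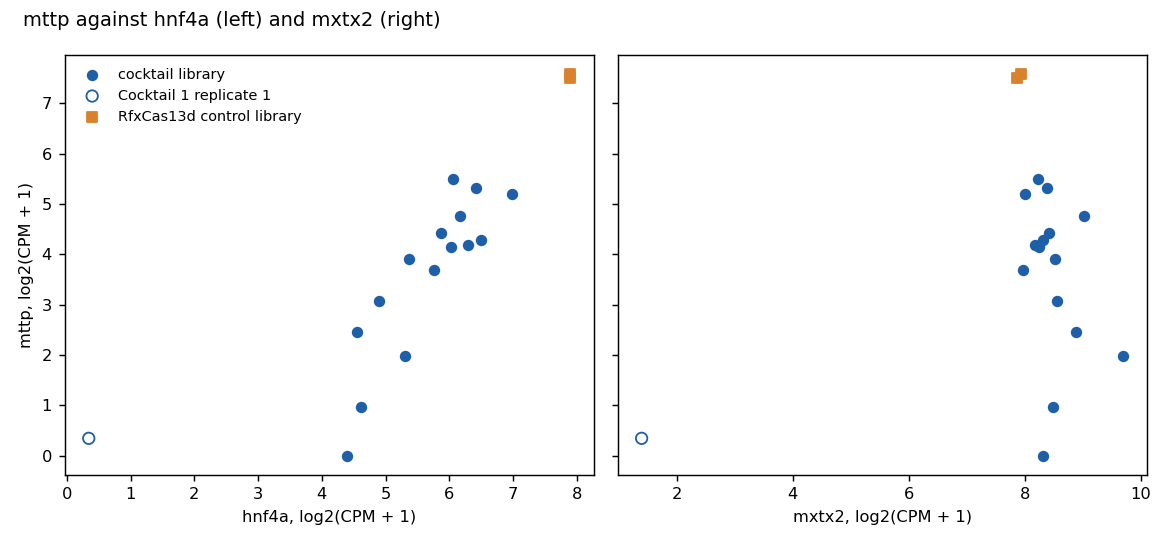
log2(CPM + 1) of mttp (vertical) against hnf4a (left) and mxtx2 (right) in each cocktail library (blue), with Cocktail 1 replicate 1 drawn open, and in the RfxCas13d control (orange squares). mttp and hnf4a vary together (Pearson r = 0.77 over 16 cocktail libraries, 0.86 without the open point), whereas for mttp and mxtx2 r changes sign (0.40, and -0.29 without the open point).

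Over all genes with a mean of at least 5 CPM, the pattern most like that of mttp over the 16 cocktail libraries was that of hsd17b14, a short-chain dehydrogenase gene (r = 0.95; 0.94 over 15 libraries), followed by lcp1 and b3gnt5a (both 0.92). The nearest to hnf4a was slc3a2b, which encodes the heavy chain of an amino acid transporter (0.98; 0.94 over 15), then wee1 and mixl1 (both 0.98). For mxtx2 it was gadd45bb, a growth arrest and stress gene (1.00; 0.97 over 15), then klf17 and zgc:113886 (both 0.99). mxtx1 had noto, gadd45ba and wnt11f2 (all 0.99), but over 15 libraries its nearest gene was sms at 0.84. hnf1ba was nearest to nfkbiz (0.93; 0.87 over 15), then rhov and fa2h. slco1d1, which had few counts in the cocktails, was nearest to zgc:110591 (0.91), and over 15 libraries to cers2b (0.93). Over 15 libraries, wee1 and mixl1 left the nearest 3 of hnf4a, klf17 those of mxtx2, and lcp1 and b3gnt5a those of mttp. Likewise rhov and fa2h left those of hnf1ba, and noto and wnt11f2 those of mxtx1. The mean of 5 CPM was again taken over all 18 libraries, controls included.

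Other genes of the layer showed a mixed picture. Of 9 further genes known there, 8 were tested and 4 were called lower by edgeR, beside 13.6% of all tested genes, and 1 of the 4, bcl2l10, lost its call in many alternatives. The median log2 fold change of the 8 was -1.89, or -1.55 with groups at 0 counts at their bound. gata6 and gata5, zinc-finger transcription factors of endoderm and yolk syncytial layer, fell by 3.46 ± 0.24 (adjusted p = 2.37e-09) and 2.44 ± 0.29 (adjusted p = 3.77e-06) on the log2 scale. gata6 had at most 55.1 CPM in cocktail libraries (Cocktail 7 replicate 1), against 237 and 203 CPM in the control. spns2, a sphingosine-1-phosphate transporter that acts in this layer, fell by 3.49 ± 0.76 (edgeR adjusted p = 0.00156), a call that was lost in limma on log2(TPM + 0.1) (-3.56, adjusted p = 0.139). bcl2l10, a Bcl-2 family gene, fell by 0.43 ± 0.15 (edgeR adjusted p = 0.0340); the call did not hold without control replicate 1 (0.205) or control replicate 2 (0.212), nor without any of 5 cocktail libraries left out in turn, Cocktail 2 replicate 1 (0.0566), Cocktail 4 replicate 2 (0.0557), Cocktail 5 replicate 2 (0.0514), Cocktail 6 replicate 1 (0.0586) and Cocktail 7 replicate 2 (0.0523). foxa3 (-1.71 ± 0.68, edgeR adjusted p = 0.0918) and the fibronectin gene fn1a (-0.10 ± 0.30, 0.833) were not called. foxa3 was called lower without Cocktail 1 replicate 1 (-1.60, edgeR adjusted p = 1.05e-08), without its replicate 2 (-2.97, 1.32e-11) and without the filter on low counts (-1.74, 5.61e-23).

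The genes around Nanog, Mxtx2 and Nodal signalling, 11 listed and 11 tested, had 3 called lower and 2 called higher, beside 13.6% and 15.1% of all tested genes. sox32, an endoderm transcription factor that is also expressed in the layer, had 0.270 to 53.3 CPM in cocktail libraries, against 110 and 83.4 CPM in the control, and fell by 2.44 ± 0.35 (edgeR adjusted p = 8.39e-05). The Nodal cofactor foxh1 fell by 0.68 ± 0.13 (edgeR adjusted p = 0.000637) and the Nodal co-receptor tdgf1 by 0.55 ± 0.15 (0.00873), the last lost without either control (0.109 and 0.101). The T-box factor eomesa rose by 1.53 ± 0.19 (edgeR adjusted p = 4.28e-06) and the Nodal effector smad2 by 0.93 ± 0.17 (0.000283). nanog itself had a difference of 0.25 ± 0.15 and was not called (edgeR adjusted p = 0.226); the Nodal ligand gene ndr1 had 0.62 ± 0.48 (0.375). With both libraries of Cocktail 1 left out, nanog (0.25, edgeR adjusted p = 0.0311) and ndr1 (0.70, 0.0433) were called higher. Without only Cocktail 1 replicate 1 their differences were 0.28 and 0.71.

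Lipoprotein genes were mostly too low to test: 7 of 21 passed the filter, with 2 lower, beside 13.6% of all tested genes. The median log2 fold change was -0.27. The count of 2 was 6 with no filter and 4 in limma on TPM, which test other sets of genes (24993 and 19867, against 14514). Without the share of all genes called in those fits beside them, these counts are not read as a result about the list. The count of 2 also rose without any single cocktail library. There the filter was applied again with 1 group of 1 library, so the genes tested can differ from these 7. apoc2, the activator of lipoprotein lipase, fell by 3.78 ± 0.45 (edgeR adjusted p = 2.43e-06), and apoc1 fell by 2.03 ± 0.43 (0.00118). apoc2 had 0 to 5.90 CPM in cocktail libraries, against 24.4 and 19.6 CPM in the control. apoeb, a yolk syncytial apolipoprotein and the most abundant of the list, had 2.43 CPM in Cocktail 1 replicate 1 and 451 to 1308 CPM in the other cocktail libraries, against 2185 and 2242 CPM in the control. Its difference of -1.45 ± 0.88 was not called (edgeR adjusted p = 0.261) but was without Cocktail 1 replicate 1 (-1.34, adjusted p = 7.87e-09). The Sar1 GTPase gene sar1b, which serves export of large lipoproteins, had -0.27 ± 0.16 (edgeR adjusted p = 0.222). Among the genes not tested, apobb.1 and pla2g12b were named after their values were seen. apobb.1 is a gene for the apolipoprotein B that mttp serves. It had 0 counts in 14 of 16 cocktail libraries, 5 counts in Cocktail 2 replicate 2 and 4 in Cocktail 4 replicate 1. The control had 26 and 0 counts of apobb.1, so its controls differ from each other. pla2g12b, which takes part in lipoprotein loading, had 3 counts in Cocktail 6 replicate 2 and 0 counts in the other 15 cocktail libraries, against 12 and 14 counts in the control.

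Few of the liver-type secreted genes and of the relatives of the 8 genes passed the filter. Of 20 secreted plasma protein genes, 18 were found, 12 had counts, 3 were tested and 2 were called lower, beside 13.6% of all tested genes. They were the kininogen gene kng1 (-2.10 ± 0.70, edgeR adjusted p = 0.0278) and the transferrin gene tfa (-1.82 ± 0.60, 0.0271). The 18 secreted genes found summed to 2.16 to 20.6 CPM in cocktail libraries, against 10.6 and 22.3 CPM in the control. Neither kng1 nor tfa was called in limma on log2(TPM + 1) (adjusted p = 0.0705 and 0.38) or on log2(TPM + 0.1) (0.118 and 0.431). Both calls were lost without control replicate 2 (0.386 for kng1 and 0.555 for tfa). That of kng1 was also lost without control replicate 1 (0.0814) and that of tfa without Cocktail 1 (0.0842), and the third gene, itih2, had -0.00 ± 0.20 (edgeR adjusted p = 0.999). Of 19 relatives by family, 18 were found, 14 had counts, 6 were tested and 1 was called higher, beside 15.1% of all tested genes. This was hnf4b, at 2.19 ± 0.69 (edgeR adjusted p = 0.0206). It had 4 to 58 counts in cocktail libraries, against 12 and 1 counts in the control, and the call was lost without control replicate 2 (1.43, adjusted p = 0.274). rbm46, a relative of rbm47, had 0.66 ± 0.28 and was not called (edgeR adjusted p = 0.0858), but was without Cocktail 1 replicate 1 (0.69, 0.0483). The median log2 fold change of the 6 tested relatives was 1.25. The 18 relatives found summed to 46.5 to 89.0 CPM in cocktail libraries, against 52.5 and 42.8 CPM in the control. a1cf, a relative of rbm47 and in mammals likewise a cofactor of apolipoprotein B mRNA editing, was not tested. It was named after its values were seen, and goes against that median. It had 0 counts in all 16 cocktail libraries, against 11 and 3 counts in the control.

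**Figure D5:**
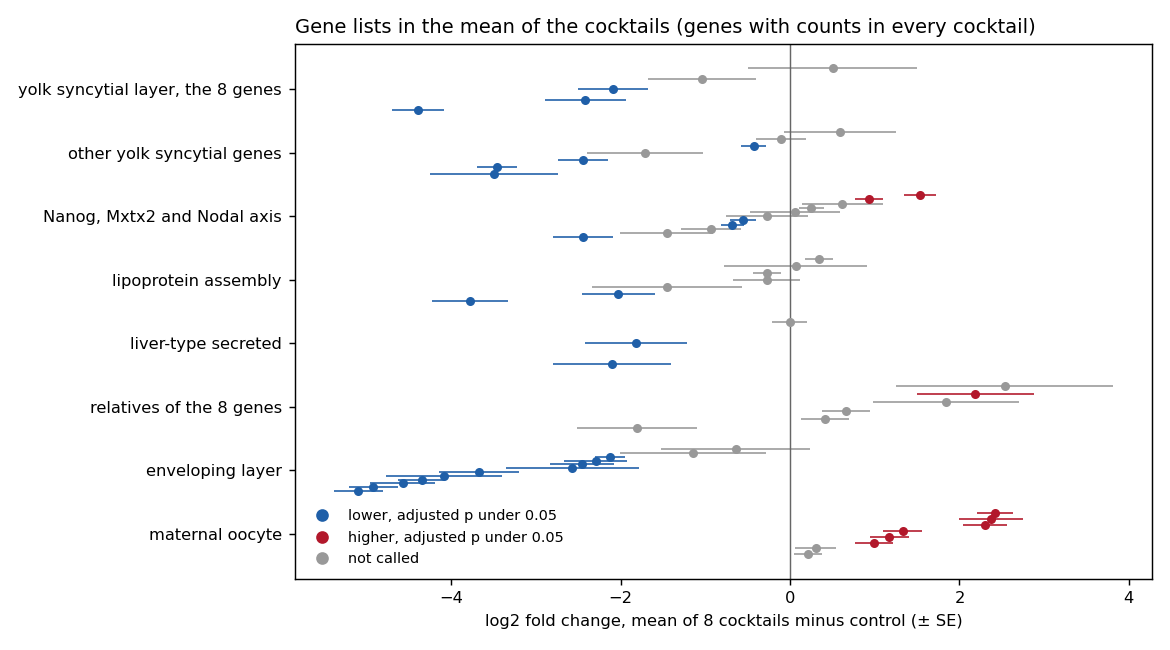
Log2 fold change, mean of the 8 cocktails minus RfxCas13d control, with its SE, for tested genes of 8 lists that had counts in every cocktail; blue points were lower and red points higher at an edgeR adjusted p under 0.05, and grey points were not called. The lowest of the yolk syncytial points is mttp at -4.39; all plotted enveloping layer points lie to the left and all maternal oocyte points to the right of 0.

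Markers of another outer tissue were lower, and maternal transcripts higher, in the same libraries. The enveloping layer is the epithelium that covers the embryo. Of its 15 listed markers 15 were tested and 13 fell, beside 13.6% of all tested genes. The median log2 fold change was -4.08 (-3.67 at the bound). evpla, an envoplakin gene, fell by 5.09 ± 0.29 (edgeR adjusted p = 4.22e-10), and the grainyhead factor gene grhl3 had -0.64 ± 0.88 and was not called (0.637). grhl3 was called lower without Cocktail 1 replicate 1 (-0.53, edgeR adjusted p = 0.00181), without its replicate 2 (-1.67, 9.81e-10) and without the filter (-0.67, 0.000701). The claudin gene cldne, not called at -1.15 ± 0.87 (0.371), was called lower without Cocktail 1 replicate 1 (-1.03, 1.26e-05). The summed level of the list was 25.1 to 1927 CPM in cocktail libraries (median 1176), against 4682 and 4503 CPM in the control. Between 1 and 6 of the 15 markers were at 0 in each cocktail library and none in either control; znf750 and anxa1c were those most often at 0. Of 8 maternal oocyte transcripts, 8 were tested and 6 rose, beside 15.1% of all tested genes. The median log2 fold change of the 8 was 1.25. Their summed level was 1615 to 3933 CPM in cocktail libraries (median 2271), against 957 and 979 CPM in the control. Among them, buc, which organises the oocyte's Balbiani body, rose by 2.42 ± 0.21 (edgeR adjusted p = 6.51e-08) and btg4, an adaptor for clearance of maternal mRNA in mammals, by 2.30 ± 0.26 (1.55e-06). Over the 16 cocktail libraries, hnf4a followed the summed enveloping layer level at r = 0.97 (0.87 without Cocktail 1 replicate 1) and mttp at 0.69 (0.88). mttp ran against the maternal sum at -0.79 (-0.72). For mxtx2 the r changed sign without that library, from 0.91 to -0.25 with the enveloping layer sum and from -0.46 to 0.53 with the maternal sum. With the share of unmapped reads, the r of the 6 genes ran from 0.11 for mttp to 0.37 for hnf4a, with mxtx1 at 0.33. Without Cocktail 1 replicate 1 it ran from -0.15 for mxtx2 to 0.27 for hnf4a, with mttp at -0.03 and mxtx1 at 0.25. Unmapped reads were higher in all cocktail libraries than in the control. The part of these in the lower levels of the 8 genes was not tested.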

How the data were processed

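Total RNA of whole embryos was made into libraries with the Nextera XT kit, per the labels' protocols; the kit does not mark strand, so antisense reads can count towards the gene they overlap. The authors deposited whole-number read counts per gene and, in a second table per library, TPM values, whose unit was read from the values since each column has the same total. The submitters' processing notes name bcl2fastq 2.20 and the build danRer11; the aligner, the counting tool, its strand setting and the gene models were not given in the sources used here.

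Groups came from the sample titles. The 4 entries of each count table that name no gene (22.6% to 55.5% of its reads) were left out. Counts were tested with edgeR 4.0.16 (R 4.3.3; TMM scaling, robust quasi-likelihood fit, 1 coefficient per group over all 18 libraries) after its filter at a minimum count of 10, which kept 14514 of 32520 genes. Contrasts were the mean of the cocktails against the control, each cocktail against the control and any difference among the cocktails, adjusted by Benjamini-Hochberg over all tested genes and called under 0.05, with at least a 2-fold change per cocktail. SE is the absolute log2 fold change divided by the root of the F statistic. CPM use TMM-scaled totals, and correlations use log2 CPM with a prior count of 2. Pooled ratios carry exact 95% counting intervals, and groups at 0 a floor of 3 counts over both libraries. Scripts were tested on simulated data.

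The 8 genes and the gene lists were chosen with earlier results of these data known. Named besides the 8 were, per list, up to 4 genes per direction with the largest change among those called and up to 2 uncalled genes of highest mean TPM; apobb.1, pla2g12b and a1cf were added after their values were seen. Alternatives were DESeq2 1.42.0, limma 3.58.1 on log2(TPM + 1) and log2(TPM + 0.1) for genes over 1 TPM in at least 2 libraries (a scale that understates changes of low genes), no filter, no fold minimum, a replicate block, fits on the compared libraries only, each library left out, and, added after the data were seen, Cocktail 1 left out.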

Additional observations from a re-analysis of the deposited data

Results flagged for a closer look

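mttp differed among the 8 cocktails (edgeR quasi-likelihood F test, adjusted p = 0.00111). The test contrasts only the cocktails, in a fit that includes the control libraries. Cocktail libraries of mttp ran from 0 CPM in Cocktail 4 replicate 2 to 44.0 CPM in Cocktail 6 replicate 1. fetub (adjusted p = 0.0104) and slco1d1 (adjusted p = 0.00908) differed by the same edgeR test. Over both libraries, fetub had 30 counts in Cocktail 7, 8 in Cocktail 6, 4 in Cocktail 8, 1 in Cocktail 2 and 0 in the others. slco1d1 had 27 counts in Cocktail 6, 20 each in Cocktails 7 and 8, and at most 8 (Cocktail 5) in any other. Of the other genes of the layer, gata6 (edgeR adjusted p = 0.000141) and gata5 (0.00509) also differed among cocktails, gata6 from 1.08 CPM in Cocktail 1 replicate 1 to 55.1 CPM in Cocktail 7 replicate 1. Outside the expression measurement, unmapped reads made up at least 21.6% of the reads in every cocktail library, against 10.1% and 10.8% in the control libraries.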

How the results depend on the processing

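With 2 libraries per group, the control rests on 2 libraries that enter every comparison with it. fetub, slco1d1 and rbm47 are limited by depth in most cocktail libraries, which had fewer than 10 counts. The calls in the mean of the cocktails for hnf1ba, mttp, fetub, slco1d1 and rbm47 held under every alternative run; hnf4a lost its call as given above, also in limma on log2(TPM + 0.1) (adjusted p = 0.113). Of the values of single genes in single cocktails, 1518 kept direction and call, 74 gained a call, 59 lost it and 2 changed sign.

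Under the replicate block, 6 of the 8 genes were lower in the mean of the cocktails, as without it, 1925 of all genes were lower (1970 without the block) and 2125 higher (2185). In Cocktail 8 the block left 3 of the 8 genes lower, since rbm47 had an adjusted p of 0.0511. The replicate numbers showed no clear pairing of the samples: of 36 pairs of groups, 1 had same-numbered libraries that deviated together at a correlation over 0.1 (range -0.124 to 0.125). With so few libraries per group, this check cannot tell whether same-numbered libraries shared a clutch or batch.

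Counts of genes called lower, or called for any difference among cocktails, moved by over 1.5 times in these cases. The cause was not tested, beyond the number of genes tested or of samples that each alternative changes. The main fit tested 14514 genes, the fit without the filter 24993 and limma on TPM 19867. Counts from these fits, also those of the 8 genes, are therefore not shares of the same set. DESeq2 gave 255 in Cocktail 6 (166 with edgeR) and, among cocktails, 1095 genes (357) and 5 of the 8 (3). Without the filter there were 712 in Cocktail 2 (435), 362 in Cocktail 6, 480 in Cocktail 7 (243), 559 in Cocktail 8 (327), 7 of the 8 genes in Cocktail 5 (4), 5 in Cocktail 7 (2), and among cocktails 1577 genes and all 8. limma on log2(TPM + 1) gave 1199 lower in the mean and, among cocktails, 168 genes and 1 of the 8; on log2(TPM + 0.1) it gave 904 lower in the mean. With no fold minimum there were 842 in Cocktail 5 (504) and 508 in Cocktail 8. With the compared libraries only there were 708 in Cocktail 1 (1141), 921 in Cocktail 2, 1075 in Cocktail 5, 652 in Cocktail 6, 621 in Cocktail 7 and 675 in Cocktail 8, with 7 of the 8 genes in Cocktail 5 and 5 in Cocktail 7. Without Cocktail 1 there were 743 in Cocktail 2, 803 in Cocktail 5, 385 in Cocktail 6, 490 in Cocktail 7 and 570 in Cocktail 8, with 7 of the 8 in Cocktail 5, 5 in Cocktail 7 and 1 higher in the mean (mxtx2), and among cocktails 874 genes and 7 of the 8.

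With each library left out in turn, the mean of the cocktails had 876 to 2668 genes lower, 1009 to 2489 higher, 5 to 7 of the 8 lower and 0 to 1 higher, and among cocktails 178 to 1714 genes and 2 to 8 of the 8 differed (7 without Cocktail 1 replicate 1 and 8 without its replicate 2). Per cocktail, genes lower and, of the 8, those lower ran as follows. Cocktail 1 had 741 to 1613 and 6 to 8, Cocktail 2 had 171 to 726 and 3 to 5, Cocktail 3 had 618 to 1370 and 4 to 6, and Cocktail 4 had 514 to 1215 and 4 to 7. Cocktail 5 had 189 to 777 and 3 to 7, Cocktail 6 had 28 to 378 and 0 to 5, Cocktail 7 had 62 to 481 and 1 to 5, and Cocktail 8 had 74 to 559 and 2 to 6. Of the 8, the 0 in Cocktail 6 came without its replicate 1 or without either control replicate, the 1 in Cocktail 7 without either of its own or either control replicate, and the 5 in Cocktail 7 without either replicate of Cocktail 1. In the mean, mxtx2 ran from -0.39 to 0.61; in Cocktail 1 it ran from -7.16 to 0.97 around -0.02, with 0.97 without its replicate 1 and 0.02 without control replicate 2. Among uncalled genes near 0, itih2 ran from -0.59 to 0.37, with 0.14 in limma on log2(TPM + 1) and 0.21 without Cocktail 1, and fn1a ran from -0.24 to 0.049.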
